A study of Mus musculus with 6 samples.

Results

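The carbohydrate-, peptide- and RNA-splitting enzymes of the exocrine pancreas were followed here through 7 genes, namely the amylases Amy1, Amy2a2, Amy2a5 and Amy2b, the carboxypeptidases Cpa1 and Cpb1, and the pancreatic ribonuclease Rnase1. They were taken by symbol from the 55414 genes in the count tables, and all 7 were found and passed the filter on low counts. Gene expression was measured by poly-A RNA sequencing in acinar cell preparations of adult, untreated mice, with 3 libraries labelled Pdx1Cre;Trip12+/+ (control) and 3 labelled Pdx1Cre;Trip12fl/fl (knockout). Both groups carry the Pdx1Cre transgene, which drives Cre recombinase from the promoter of Pdx1, a gene active in the early pancreas, so deletion is not limited to acinar cells by design. The floxed Trip12 gene, which encodes an E3 ubiquitin ligase, is intact in control. The tumour-derived lines that the design text mentions were not used.

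Acinar cells make these enzymes on the rough endoplasmic reticulum, pack them into zymogen granules and release them into the duct when a meal is sensed. Alpha-amylase cuts the internal bonds of starch. Procarboxypeptidases A and B are inactive precursors that trypsin activates in the gut, where the A form removes aromatic and aliphatic residues and the B form removes lysine and arginine from the C-terminal end of peptides. Ribonuclease 1 breaks down RNA in food. In the mouse, the Amy2 genes are the pancreatic amylases, whereas Amy1 is known from the salivary gland and the liver, and all of them lie in 1 cluster on chromosome 3.

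Which amylase copy a read belongs to could often not be read from its sequence. An 80-base stretch of the coding sequence is shown because, of all stretches of that length aligned without gaps, it holds the most differences between Amy2a5 and Amy2b. It covers coding bases 173 to 252 of Amy2a5 in the GENCODE M21 transcripts of build GRCm38, and capitals mark bases that differ from Amy2a5.
Amy2a5: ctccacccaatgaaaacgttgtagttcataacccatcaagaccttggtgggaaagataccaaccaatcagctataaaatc
Amy2a2: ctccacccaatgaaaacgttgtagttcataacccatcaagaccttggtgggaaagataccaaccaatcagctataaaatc
Amy2b: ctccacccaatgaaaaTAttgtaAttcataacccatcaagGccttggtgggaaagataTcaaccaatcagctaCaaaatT
Amy1: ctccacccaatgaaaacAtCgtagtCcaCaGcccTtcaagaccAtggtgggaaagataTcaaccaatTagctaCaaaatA
Amy2a2 had 0 differences in this stretch, Amy2b had 7 and Amy1 had 11. Over the 1524 coding bases of Amy2a5, an alignment found 0 edits in Amy2a2, Amy2a3 and Amy2a4, 30 in Amy2b (98.0% identity) and 159 in Amy1 (89.6% identity). The carboxypeptidases were far apart, with 61.2% identity between the coding sequences of Cpa1 and Cpb1 aligned end to end.

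How much of each transcript is its own was measured by sliding windows of 50, 100 and 150 bases over the longest annotated transcript and searching each window, on both strands, in the transcripts of every other gene. With 100-base windows, 100% of Amy2a2, Amy2a3 and Amy2a4, 47.4% of Amy2a5, 11.4% of Amy2b and 0% of Amy1 were found in another gene. None of the windows of Cpa1, Cpb1 or Rnase1 was found elsewhere at any of these lengths. The 1902 windows particular to Amy2a5 included 0 that lay wholly in its coding sequence, so the counts of Amy2a5 come from bases outside the shared coding part as far as 100-base windows show. Reads with more than 1 place in the genome are set apart from the gene rows in these tables, and they made up 26.0% to 28.4% of all reads in control and 21.6% to 24.1% in knockout. From which genes those reads came is not recorded in the tables. The counts of Amy2a2 therefore rest on no sequence of its own in this annotation, and the amylase counts below are not totals of amylase messenger RNA.

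**Figure D1:**
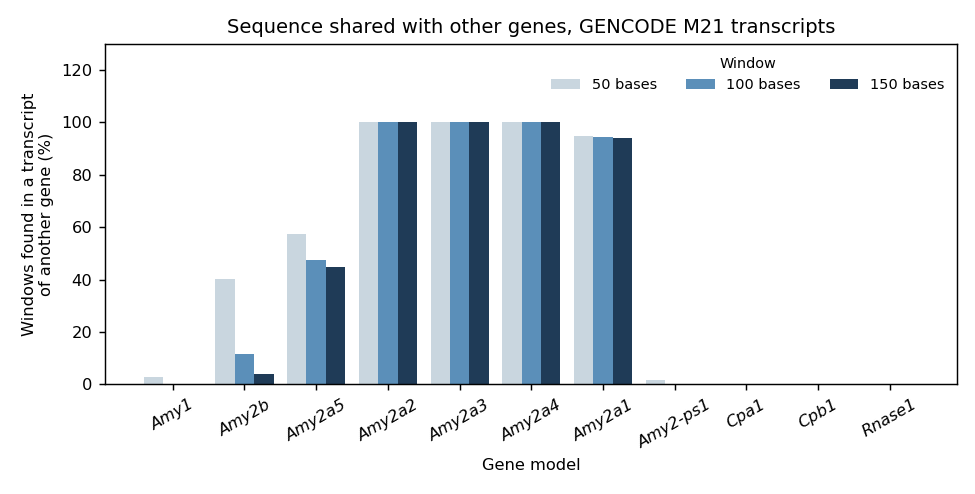
Share of sequence windows of each transcript (vertical axis, percent) that also occur in a transcript of another gene, for windows of 50, 100 and 150 bases. Amy2a2, Amy2a3 and Amy2a4 stand at 100% and the carboxypeptidases and Rnase1 at 0%.

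Promoters are shown for Amy2a5 and Amy2b, which are close copies in their coding part but differed in their counts, and for both carboxypeptidases. The 250 bases before the annotated start are given from RefSeq on build GRCm38.p6, for the strand of the gene. Capitals mark matches on either strand to CANNTG (the E-box, bound by basic helix-loop-helix factors such as PTF1A), TTTCCC (the box that RBPJ and RBPJL bind in the PTF1 complex), TATAAA (the TATA box) or AAGGTCA (bound by nuclear receptors such as NR5A2), and no matches overlapped.
Amy2a5 (chr3:113258700-113258949, minus strand): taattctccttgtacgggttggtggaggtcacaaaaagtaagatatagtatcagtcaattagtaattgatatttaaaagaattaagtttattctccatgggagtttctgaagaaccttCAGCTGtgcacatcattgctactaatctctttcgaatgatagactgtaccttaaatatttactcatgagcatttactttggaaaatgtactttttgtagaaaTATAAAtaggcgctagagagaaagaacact
Amy2b (chr3:113156728-113156977, minus strand): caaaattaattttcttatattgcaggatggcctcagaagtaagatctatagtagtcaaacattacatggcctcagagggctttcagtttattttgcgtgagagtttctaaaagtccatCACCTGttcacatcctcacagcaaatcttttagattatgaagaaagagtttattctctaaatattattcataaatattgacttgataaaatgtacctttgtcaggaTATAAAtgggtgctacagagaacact
Cpa1 (chr6:30638968-30639217, plus strand): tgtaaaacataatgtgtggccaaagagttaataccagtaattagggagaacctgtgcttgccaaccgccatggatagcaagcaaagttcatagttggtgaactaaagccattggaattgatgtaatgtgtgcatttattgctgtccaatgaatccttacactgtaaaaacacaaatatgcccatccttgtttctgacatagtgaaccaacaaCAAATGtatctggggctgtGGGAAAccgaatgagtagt
Cpb1 (chr3:20275734-20275983, minus strand): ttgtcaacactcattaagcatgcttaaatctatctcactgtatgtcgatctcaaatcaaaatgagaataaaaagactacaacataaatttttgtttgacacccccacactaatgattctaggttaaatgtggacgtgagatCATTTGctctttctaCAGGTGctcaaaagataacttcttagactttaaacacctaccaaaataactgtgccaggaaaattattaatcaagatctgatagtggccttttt
All 7 members matched an entry of the promoter table. The Amy2a5 and Amy2b windows were 66.0% identical, less than their coding parts. This value counts matches over 268 aligned columns, gaps included, whereas the coding value counts edits over the 1524 coding bases. Each window held 1 TATA box and 1 E-box, the latter from base -132 to base -127 relative to the start. The Cpa1 window held 1 E-box and 1 TTTCCC match on the opposite strand, and the Cpb1 window 2 E-boxes. None of the 4 motifs was found in the same window of Rnase1. Among 32851 promoters of this length in the table, 66.2% held CANNTG, 21.9% TTTCCC, 12.4% TATAAA and 4.08% AAGGTCA. A match describes letters and is not evidence of binding, and the windows of Amy2a2, Amy2a3 and Amy2a4 were identical to each other.

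The libraries held 31019500 to 34041901 gene counts. Levels are normalised counts in CPM, scaled to the library total and between libraries by TMM factors, and triplets of values follow the replicate order 1 to 3. The factors were 0.785 to 1.02 in control and 1.119 to 1.193 in knockout, without overlap, and listed digestive enzymes took 72.85% to 75.1% of control counts and 70.3% to 71.0% of knockout counts. The controls showed a mean of 25.9 CPM ± 3.36 (SD, n = 3) for Trip12 and the knockouts 14.03 CPM ± 0.917 (log2 fold change -0.89, SE 0.14). Its adjusted p was 0.0256 (Benjamini-Hochberg over 13115 genes, quasi-likelihood F test of edgeR), and leaving out 1 library at a time kept the call in 1 of 6 cases. All 8 acinar markers, Cpa1 among them, had fitted values below 0 and edgeR called 0 of them at an adjusted p under 0.05 (5 at an unadjusted p under 0.05, 4 by DESeq2, 0 by limma-voom). Over all tested genes, 47.6% were fitted below 0 and 16.7% had an unadjusted p under 0.05. Calls over all tested genes were 0.945% by edgeR, 4.62% by DESeq2 and 0.64% by limma-voom. The summed level of the 8 markers was 418900 to 565300 CPM in control and 345300 to 354400 CPM in knockout. The sums of the duct, islet, leukocyte, mast cell, stromal and endothelial, and adipocyte lists overlapped between the groups. Without a block, edgeR called 0 genes of the duct, islet, leukocyte and adipocyte lists. At an unadjusted p under 0.05 in edgeR there were 6 of 8 duct, 2 of 8 islet, 1 of 7 leukocyte and 0 of 1 adipocyte genes. DESeq2 called 4 duct genes, 1 islet gene and 0 leukocyte or adipocyte genes, and limma-voom called 0 in each list. Single markers were called with the replicate number as a block, a fit that called 5.99% of all tested genes. In it the duct genes Krt7, Spp1 and Ambp and the islet gene Pcsk2 were called higher. So were the macrophage genes Adgre1, C1qa and C1qb and the adipocyte gene Fabp4. The duct genes Krt19 and Muc1 were called lower. Krt7, Pcsk2, Adgre1, C1qa, C1qb and Fabp4 overlapped between groups. Of the 8 duct genes, 2 lay higher in every knockout, Spp1 (58.0 to 68.9 CPM in control, 78.1 to 163.8 CPM in knockout) and Ambp. Another 3 lay lower in every knockout, Krt19 (13.3 to 18.3 CPM in control, 7.17 to 11.7 CPM in knockout), Muc1 and Cftr. Over all tested genes these shares were 12% higher and 10.9% lower. All 8 stromal and endothelial genes were fitted higher with 0 calls. In the hepatocyte list Ttr, also made by islet cells, fell from 26.1 to 35.0 CPM in control to 14.4 to 14.8 CPM in knockout (log2 fold change -1.08, adjusted p 0.0148 in edgeR). Alb lay higher in every knockout (log2 fold change 1.49, adjusted p 0.0938 in edgeR and 0.0490 with the block), and Fgb was at 0 counts in every library. The part of these cells in the enzyme values was not tested. The salivary markers Prol1, Smr2 and Bpifa2 were at 0 counts in all 6 libraries. Counts of Xist were 2118 and 2440 for control replicates 2 and 3, and 3 to 5 for the other 4 libraries, so control replicate 1 is the 1 control without Xist, as all knockouts are. Summed counts of the Y-linked genes Ddx3y, Eif2s3y, Kdm5d and Uty were 1 and 3 for control replicates 2 and 3. They were 1205 to 1784 for the other 4 libraries. By these counts control replicates 2 and 3 are female and the other 4 libraries male, so sex and genotype are largely confounded. In these bulk samples, fewer acinar cells and less enzyme RNA per acinar cell cannot be told apart.

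In control, Cpa1, Rnase1 and Cpb1 stood above every counted amylase copy. In CPM of unscaled gene counts per kilobase of annotated exons, the control medians were 27410 for Cpa1, 20810 for Rnase1, 15510 for Cpb1, 1826 for Amy2b, 32.6 for Amy1, 22.2 for Amy2a5 and 2.05 for Amy2a2. On that scale Cpa1 (25210 to 29580), Rnase1 (19020 to 21120) and Cpb1 (15370 to 15610) did not overlap in the control libraries. The order depended on the length used. Per kilobase of coding sequence, control replicates 1 to 3 gave 38170, 35100 and 41180 for Cpa1, 40920, 40540 and 41170 for Cpb1 and 46180, 46860 and 42200 for Rnase1, so that Cpa1 and Cpb1 overlapped and Rnase1 was the highest. For the amylases the level is that of uniquely placed reads alone.

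**Figure D2:**
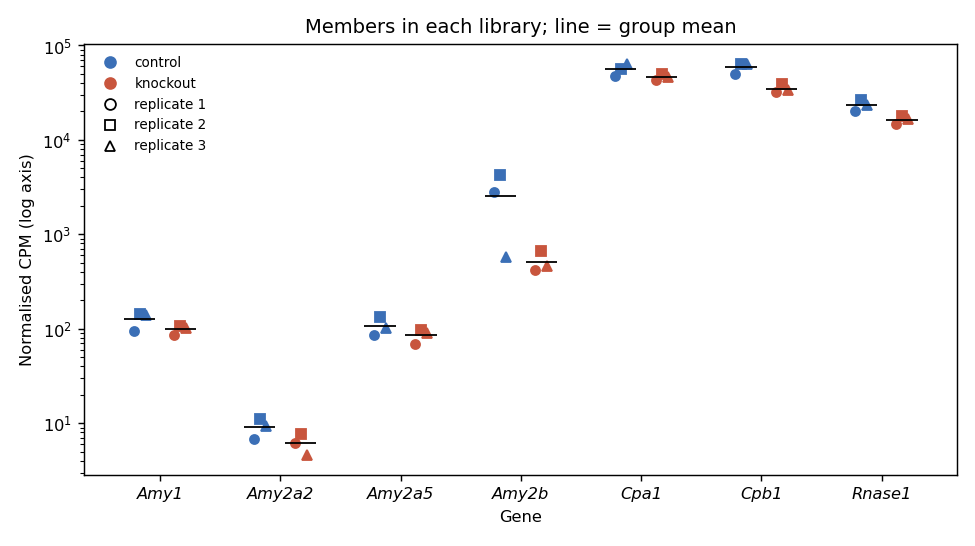
Normalised CPM (vertical log axis) of the 7 genes in each of the 6 libraries, with group means as lines and replicate numbers as symbols. The knockout points of Cpb1 and Rnase1 all lie below the control points, and control replicate 3 of Amy2b lies with the knockouts.

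Carboxypeptidase B stood lower in every knockout library, and carboxypeptidase A less so. Cpb1 (ENSMUSG00000011463, chromosome 3) read 50170, 64310 and 63420 CPM across the controls against 31880, 39420 and 33420 CPM across the knockouts. The highest knockout lay below the lowest control, as in 10.9% of the tested genes. The control mean was 59300 CPM ± 7918 (SD, n = 3) and the knockout mean 34910 CPM ± 3986, 58.9% of control, with a log2 fold change of -0.76 (SE 0.18). This did not pass over all genes in edgeR's quasi-likelihood test (adjusted p 0.0884). With the replicate number as a block it did (log2 fold change -0.76, adjusted p 0.0321 in the same edgeR test), as 5.99% of the tested genes did (2.58% lower, 3.4% higher). The block was fitted because of correlations in these same data, and the labels do not pair the samples. Leaving out control replicate 1 also gave a call (log2 fold change -0.90, adjusted p 0.0164 in edgeR), and the other 5 fits that each left out 1 library did not (adjusted p 0.179 to 0.345). The block call was kept without pair 3 and lost without pair 1 or pair 2 (adjusted p 0.0725 and 0.352 in edgeR).

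Cpa1 (ENSMUSG00000054446, chromosome 6) read 47250, 56220 and 64050 CPM across the controls against 43300, 49450 and 46430 CPM across the knockouts. The groups overlapped, since knockout replicate 2 exceeded control replicate 1. Its log2 fold change of -0.27 (SE 0.18) had an adjusted p of 0.499 in edgeR and an approximate 95% interval, taken from the standard error, from -0.61 to 0.08. As a share of gene counts, before any scaling between libraries, Cpa1 took 4.80%, 4.41% and 5.18% of the controls and 5.16%, 5.53% and 5.38% of the knockouts. Cpb1 took 5.095%, 5.05% and 5.13% of the controls but 3.798%, 4.41% and 3.87% of the knockouts. On this unscaled measure the knockouts stood lower for Cpb1 and not for Cpa1. The exact Clopper-Pearson 95% intervals of these shares were narrow, as for Cpb1 in control replicate 1 (5.087% to 5.103%), and cover counting error only.

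Set against each other inside a library, which needs no scaling, the carboxypeptidases parted the groups. Per count of Cpa1 the controls held 1.06, 1.14 and 0.990 counts of Cpb1, and the knockouts 0.736, 0.797 and 0.720. Every control lay near parity and every knockout below it. The mean log2 ratio came to 0.09 ± 0.10 (SD, n = 3) for the controls and -0.41 ± 0.08 for the knockouts, which differ by -0.50, and the exact two-sided permutation test gave p = 0.1, the smallest that 3 against 3 allows (0.25 adjusted over the 5 ratios tested). Leaving out any 1 library kept the difference between -0.55 and -0.45. The ratio also depends on Cpa1, whose log2 fold change of -0.27 was smaller in size than the median of other digestive enzymes (-0.48). Ratios of those enzymes to Cpa1 were not tested, so the parting is not shown to be particular to Cpb1. The Xist-negative control replicate 1, at 1.06, also lay above every knockout, but 1 library cannot tell sex from genotype. With a sex covariate the log2 fold change of Cpb1 was -0.52 (adjusted p 0.369 in edgeR).

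Pancreatic ribonuclease followed Cpb1 with a smaller difference. Rnase1 (ENSMUSG00000035896, chromosome 14) read 20330, 26690 and 23340 CPM across the controls against 14900, 17720 and 16450 CPM across the knockouts. All knockouts lay below all controls, and the knockout mean was 69.7% of control. As an unscaled share of gene counts the groups overlapped, at 2.06%, 2.095% and 1.89% of the controls and 1.775%, 1.98% and 1.91% of the knockouts. The log2 fold change of -0.52 (SE 0.17) was not called (adjusted p 0.190 in edgeR, 0.111 with the block in edgeR), except without control replicate 1 (log2 fold change -0.64, adjusted p 0.0486 in edgeR). Per count of Cpa1 the controls held 0.430, 0.475 and 0.364 counts of Rnase1, and the knockouts 0.344, 0.358 and 0.354. These ratios did not overlap, although control replicate 3 lay close to the knockouts. Here too, ratios of other digestive enzymes to Cpa1 were not tested. The difference in log2 ratio was -0.26 (exact two-sided permutation test, p = 0.1, and 0.25 adjusted over the 5 ratios), and -0.17 without control replicate 2.

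**Figure D3:**
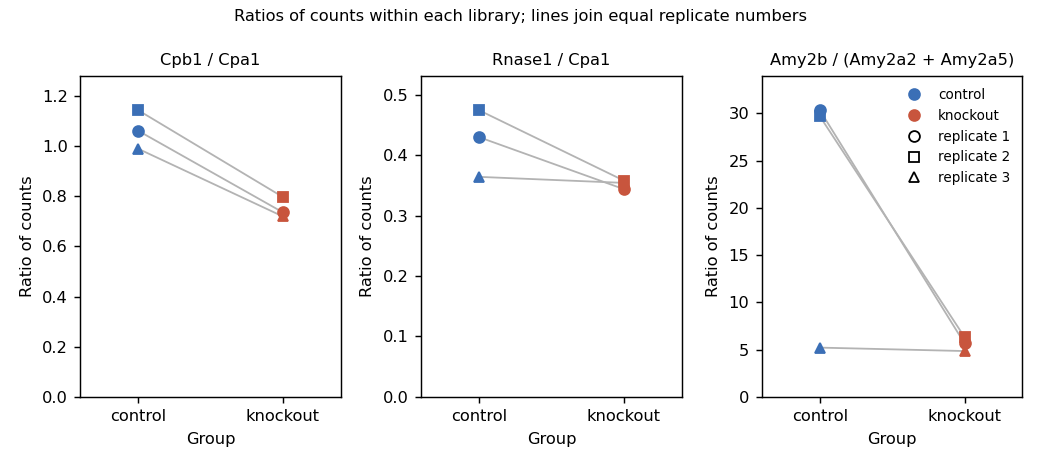
Ratios of raw counts inside each library (vertical axes from 0) for Cpb1 to Cpa1, Rnase1 to Cpa1, and Amy2b to the sum of Amy2a2 and Amy2a5, with lines between equal replicate numbers. Cpb1 to Cpa1 runs from 0.990 to 1.14 in control and from 0.720 to 0.797 in knockout, and in the amylase ratio control replicate 3 sits with the knockouts.

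Amy2b split the control group. Amy2b (ENSMUSG00000083079, chromosome 3), classed as an unprocessed pseudogene in GENCODE M21 and as protein-coding in RefSeq, drew 90050, 103875 and 15863 counts from the controls against 15687, 23397 and 17048 from the knockouts. After normalisation the controls stood at 2836, 4267 and 576.6 CPM, the knockouts at 420.5, 667.9 and 457.2 CPM. Control replicates 1 and 2 were high, and control replicate 3 lay inside the knockout range. The mean of the 2 high controls was 6.16 times control replicate 3, and the lower of them was 4.25 times the highest of the other 4 libraries. The log2 fold change of -2.31 (SE 0.73) was not called (adjusted p 0.222 in edgeR and 0.205 with the block), and it rests on the 2 high controls. Without control replicate 3 it was -2.79 with an adjusted p of 0.0108 in edgeR. The mean log2 CPM of the knockouts minus that of control replicate 3 was -0.19, with no test.

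The counts of the other amylase models did not divide the libraries in this way. Amy2b made up 91.2% and 91.6% of the counts of all 8 amylase gene models in control replicates 1 and 2, 60.7% in control replicate 3 and 62.7% to 66.3% in knockout. Without it, the other models together held 8700, 9477 and 10281 counts over the controls and 8610, 11876 and 10158 over the knockouts. Per count of Amy2a2 and Amy2a5 the controls held 30.3, 29.7 and 5.20 counts of Amy2b, and the knockouts 5.64, 6.31 and 4.84 (difference in mean log2 ratio -1.59, exact two-sided permutation test, p = 0.3), and without control replicate 3 the difference was -2.43. Counts of the 4 amylases per count of Cpa1 and Cpb1 followed Amy2b, at 0.0310, 0.0378 and 0.00649 for the controls and 0.00773, 0.00991 and 0.00819 for the knockouts, with a log2 difference of -1.20 (exact two-sided permutation test, p = 0.4) that was -2.001 without control replicate 3 and -0.73 without control replicate 2. Counts of Amy1 per count of the Amy2 members went the other way, at 0.0324, 0.0325 and 0.204 against 0.174, 0.138 and 0.185, with a log2 difference of 1.46 (exact two-sided permutation test, p = 0.4) that was 2.34 without control replicate 3. This ratio inverts the Amy2b split, because Amy2b holds most of the Amy2 counts. Amy1 itself drew 3010, 3490 and 3866 counts from the controls and 3206, 3742 and 3814 from the knockouts. Rnpc3, which overlaps Amy1, and the 3 nearest tested protein-coding genes on each side of the cluster in the annotation overlapped between the groups, with adjusted p from 0.608 to 0.994 in edgeR. This split ran across the Xist-negative libraries, since control replicate 1 was high and the knockouts were low. The cause of the split was not tested.

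**Figure D4:**
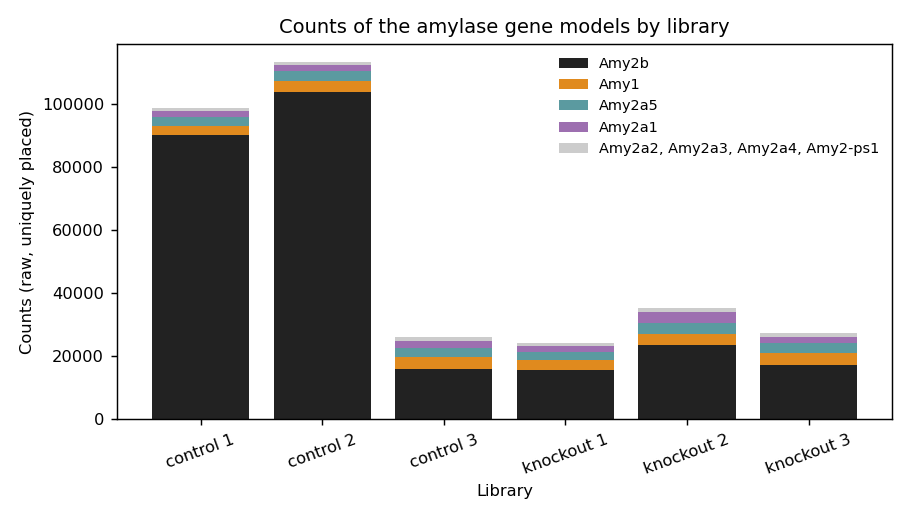
Raw counts of the 8 amylase gene models (stacked bars, vertical axis from 0) in each library. Amy2b fills most of the bars of control replicates 1 and 2, at 90050 and 103875 counts, while the other models together stay between 8610 and 11876 counts in all 6 libraries.

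The remaining amylases stood slightly lower in the knockouts and were not called. Amy1 (ENSMUSG00000074264) read 94.8, 143.4 and 140.5 CPM across the controls against 85.9, 106.8 and 102.3 CPM across the knockouts, with a log2 fold change of -0.36 (SE 0.19, adjusted p 0.401 in edgeR). Amy2a5 (ENSMUSG00000074268) read 86.8, 132.8 and 101.4 CPM against 68.3, 98.1 and 89.9 CPM, with a log2 fold change of -0.32 (SE 0.21, adjusted p 0.483 in edgeR). In both genes the groups overlapped, with control replicate 1 among the knockouts. Amy2a2 (ENSMUSG00000096569), with only 171 to 269 counts per library and no window of its own, read 6.77, 10.97 and 9.41 CPM against 6.25, 7.68 and 4.59 CPM (log2 fold change -0.55, SE 0.24, adjusted p 0.289 in edgeR). The approximate 95% intervals, from -0.74 to 0.02 for Amy1 and from -0.73 to 0.08 for Amy2a5, include 0, so a p above the threshold does not show equal levels.

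Of the 4 other amylase gene models edgeR called 0 (2 at an unadjusted p under 0.05, against 16.7% of all tested genes, 0 by DESeq2, 0 by limma-voom). Amy2a3 and Amy2a4 had log2 fold changes of -0.53 and -0.54 with no overlap between groups (adjusted p 0.209 and 0.232 in edgeR, 0.0441 and 0.0368 with the block). Over all tested genes, 10.9% lay lower in every knockout and the block called 2.58% lower. Every window searched in both models was also found in other Amy2 models, so they are not shown to be separate observations. Amy2a1 (-0.05) and the pseudogene Amy2-ps1 (-0.37) overlapped between groups. Amy2-ps1 varied within the groups, from 3.43 to 16.3 CPM in control and from 3.35 to 11.8 CPM in knockout.

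As a group, the 7 members had fitted log2 fold changes below 0 in 7 of 7 cases, with a median of -0.52, against 47.6% of all tested genes below 0 and a median of 0.02. The edgeR test called 0 of 7, against 0.945% of all tested genes (0.48% lower, 0.465% higher). At an unadjusted p under 0.05 there were 4 of 7, against 16.7% of all tested genes. DESeq2 called 3, Amy2b, Cpb1 and Rnase1, against 4.62% of its tested genes, and limma-voom 0, against 0.64%. In CPM the knockouts lay lower in all 3 same-numbered pairs for each of the 7. The labels do not pair these libraries, the values depend on the TMM factors, and no share over all genes was computed. The groups did not overlap for 2 of 7 (Cpb1 and Rnase1), against 22.9% of all tested genes. Together the members took 12.3%, 11.9% and 12.3% of the gene counts of the controls, and 10.8%, 12.0% and 11.2% of those of the knockouts. The groups overlapped, since knockout replicate 2 exceeded control replicate 2 (exact two-sided permutation test, p = 0.2). The direction of the smaller changes depended on the scaling. When libraries were scaled by their totals alone, the median of all genes moved to 0.43, and Amy1 (0.08), Amy2a5 (0.11) and Cpa1 (0.16) lay above 0 while Cpb1 (-0.34) and Rnase1 (-0.09) lay below. Relative to that median the members stood at -2.34 to -0.27, with Cpb1 at -0.77. Subtracting the median largely repeats the TMM scaling, so these values are not separate evidence.

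**Figure D5:**
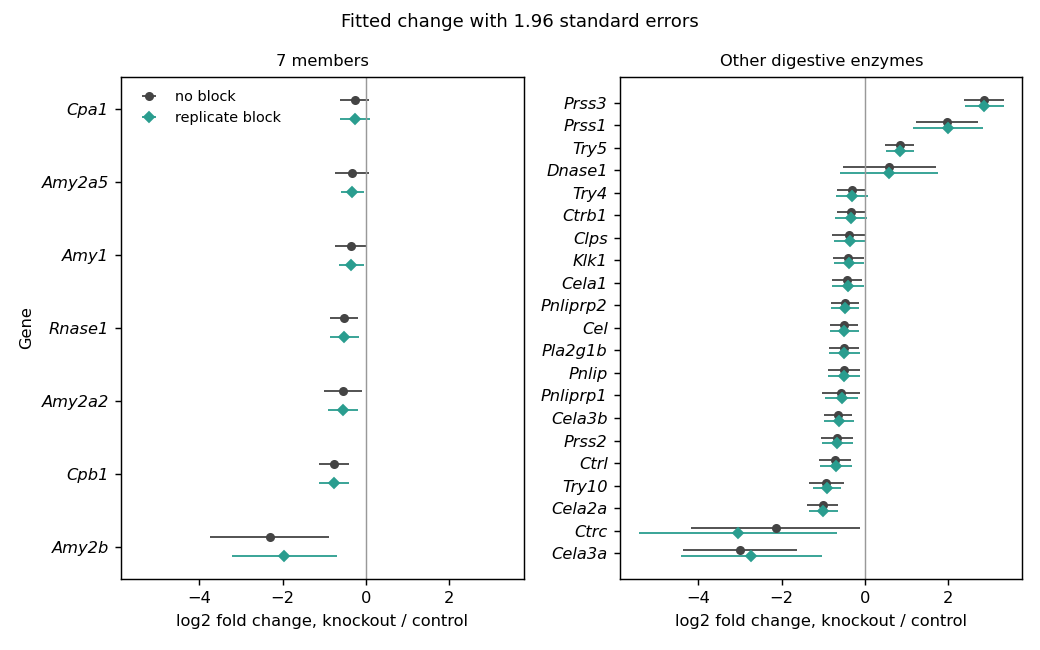
Fitted log2 fold change, knockout over control (horizontal axis), with approximate 95% bars from the standard error, for the 7 members and for other tested digestive enzymes, without and with the replicate block. Most enzymes lie below 0, from Cela3a at -2.99 up to Prss3 at 2.88, and Cpb1 and Amy2b have the lowest values among the members.

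The other digestive enzymes gave the frame for these values. Of 22 tested, 18 were fitted below 0 with a median of -0.48, against 47.6% of all tested genes below 0. Every knockout lay below every control for 13 of the 22 and above for 3, against 10.9% and 12% of all tested genes. The edgeR test called 1 (15 at an unadjusted p under 0.05, 12 by DESeq2, 1 by limma-voom). Over all tested genes these shares were 0.945% for edgeR, 16.7% unadjusted, 4.62% for DESeq2 and 0.64% for limma-voom. The same shares are the background of the lists that follow. The 1 call was Prss3, a trypsinogen, which rose (log2 fold change 2.88, adjusted p 0.00166 in edgeR). With the block, 2 were called lower, Try10 and the elastase Cela2a, and 2 higher, Prss3 and Try5. The block called 2.58% of all tested genes lower and 3.4% higher. Trypsinogen genes are near-identical copies and their counts are uncertain.

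Among other carboxypeptidases and their inhibitor, 10 of 16 in the tables were tested. The edgeR test called 1, Cpm, which fell, against 0.945% of all tested genes. Cpm, a membrane-bound enzyme that removes C-terminal lysine and arginine, read 6.49, 5.42 and 5.998 CPM across the controls against 2.47, 2.63 and 2.60 CPM across the knockouts, with a log2 fold change of -1.22 (SE 0.17, adjusted p 0.0177 in edgeR). All controls were above all knockouts. The call was kept without control replicate 1 (adjusted p 0.0211 in edgeR) and lost without any 1 of the other 5 libraries (adjusted p 0.0534 to 0.0991 in edgeR), with log2 fold changes from -1.28 to -1.18 over all 6 fits. Cpn1, the catalytic subunit of plasma carboxypeptidase N, stood at 33.5 CPM ± 4.65 (SD, n = 3) against 21.3 CPM ± 2.83, and Lxn, which encodes the carboxypeptidase inhibitor latexin and overlaps Gfm1, 9.04 CPM ± 2.18 and 4.98 CPM ± 0.376. Neither was called without the block (adjusted p 0.0947 and 0.0823 in edgeR), and both were with it (0.0173 and 0.0166). The list's median was -0.21, with 6 genes fitted lower and 4 higher. Every knockout lay below every control for 4 of the 10 and above for 2. Over all tested genes these shares were 10.9% and 12%. Cpa3, the mast cell carboxypeptidase, stayed at 0.161 to 0.836 CPM, and Cpxm1, at 0.259 CPM ± 0.180 in control and 0.777 CPM ± 0.492 in knockout, had the largest fitted difference (log2 fold change 1.54, adjusted p 0.315 in edgeR).

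In the list of the ribonuclease A family and its inhibitor, 3 of 11 genes passed the filter, Rnase4, Ang and the inhibitor Rnh1. All 3 lay lower in every knockout than in every control, as did 10.9% of all tested genes. The edgeR test called 0 (3 at an unadjusted p under 0.05, against 16.7% of all tested genes, 2 by DESeq2, against 4.62%, and 0 by limma-voom). Rnase4, a secreted ribonuclease, read 97.8, 169.2 and 191.5 CPM across the controls against 38.7, 66.0 and 43.4 CPM across the knockouts (log2 fold change -1.63, SE 0.30, adjusted p 0.0561 in edgeR and 0.000825 with the block). Ang, which encodes angiogenin and overlaps Rnase4 in the annotation, read 35.8, 60.0 and 68.5 CPM against 15.6, 27.2 and 19.2 CPM (log2 fold change -1.41, adjusted p 0.0761 in edgeR and 0.000826 with the block). Reads from the part they share cannot be assigned to either, so both levels are uncertain. Rnh1, the cytosolic ribonuclease inhibitor, stood at 141.1 CPM ± 26.6 (SD, n = 3) against 104.6 CPM ± 5.97 (adjusted p 0.260 in edgeR). Of the 6 fits that left out 1 library, 1 called Rnase4 and Ang, that without control replicate 1 (adjusted p 0.00645 and 0.0116 in edgeR), and in the others adjusted p reached 0.224 and 0.273.

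One gene of the family repeated the split of Amy2b. Rnase2b, an eosinophil-type ribonuclease that failed the filter, drew 167 and 210 counts from control replicates 1 and 2, 0 from control replicate 3, and 1, 0 and 0 from the knockouts. It lies on chromosome 14 and Amy2b on chromosome 3. Rnase2b belongs to a family of close copies, and its counts are uncertain. It was singled out after its values were seen, and no test was made.

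Genes on either side of starch and peptide digestion were compared from the same lists. Among 7 tested genes of sugar digestion and transport, edgeR called 0 (3 at an unadjusted p under 0.05, against 16.7% of all tested genes, 0 by DESeq2, 0 by limma-voom), with a median log2 fold change of 0.29. With the block, Mgam (maltase-glucoamylase, which completes starch digestion) and the sodium-glucose transporter Slc5a1 were called higher and the glucose transporter Slc2a2 lower. All 3 were low, at 0.247 to 5.67 CPM. Of 19 tested granule and secretion genes 16 were fitted below 0, against 47.6% of all tested genes, with a median of -0.36. There were 0 edgeR calls (8 at an unadjusted p under 0.05, against 16.7%, 5 by DESeq2, against 4.62%, and 0 by limma-voom). With the block 4 were called lower, the granule membrane protein Gp2 (6987 CPM ± 1209 in control and 3315 CPM ± 888 in knockout, SD, n = 3), Cuzd1 (1511 CPM ± 363 and 571.0 CPM ± 238), the trypsin inhibitor Spink1 and the mucin Muc1.

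The transcription factors listed for acinar cells, not all of which are drivers of enzyme genes, had fitted values in both directions. Of 14 tested, 7 were fitted lower and 7 higher, with a median log2 fold change of 0.02. There were 0 edgeR calls (2 at an unadjusted p under 0.05, against 16.7% of all tested genes, 1 by DESeq2, 0 by limma-voom). Ptf1a, whose product binds E-boxes, read 7.43, 14.1 and 10.8 CPM against 5.44, 9.48 and 7.05 CPM, with overlap (adjusted p 0.374 in edgeR and 0.0460 with the block). Rbpjl, its partner in the adult PTF1 complex, stood at 214.0 CPM ± 56.8 (SD, n = 3) against 504.5 CPM ± 145 without overlap (adjusted p 0.0685 in edgeR and 0.00203 with the block). In the controls, the 2 single-strand counts of Ptf1a summed to 932 to 1413 more than its 236 to 342 unstranded counts, and those of Rbpjl to 969 to 1049 more, so reads shared with genes on the other strand are missing from both and their levels are uncertain. Prox1, low at a mean of 2.89 CPM in control, was also called higher with the block. Of 10 secretagogue and hormone receptors edgeR called 0 (2 at an unadjusted p under 0.05, against 16.7% of all tested genes, 2 by DESeq2, against 4.62%, and 0 by limma-voom). With the block the muscarinic receptor Chrm1 was called lower (log2 fold change -2.11, adjusted p 0.231 in edgeR and 0.0141 with the block).

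Across the 6 libraries, the levels of the members went together to different degrees. Pearson correlations of log2 CPM, which share each library's scaling factor and have 6 points, were 0.977 between Cpb1 and Rnase1, 0.866 between Cpa1 and Cpb1, 0.937 between Cpa1 and Amy1 and 0.226 between Cpa1 and Amy2b. Among about 3890 protein-coding genes with a mean of at least 10 CPM, the 3 most like Cpb1 were Sdr9c7 (0.996), Rnase4 (0.995) and Cpn1 (0.995). The 3 most like Cpa1 were Kcmf1, Trim28 and the lipase-related Pnliprp1 (0.994 to 0.996), and the 3 most like Rnase1 were Cpt2, Prps2 and Polr3k (0.994 to 0.995). A correlation over 0.95 was common, with 115 genes for Cpb1, 118 for Cpa1 and 100 for Rnase1. For Amy2b there were 9, led by Atp6ap2 (0.986), Tmem214 and Hspa13. Atp6ap2 itself ranged only from 16.6 to 23.7 CPM, with control replicates 1 and 2 the highest.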

How the data were processed

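Each library was deposited as raw counts per gene, made by the authors with STAR 2.7.10a on GRCm39 (mm39), per the submitters' processing notes; the annotation release, and whether 1 count is a read or a read pair, are not given in the sources used here. The unstranded counts were used, and the 4 leading rows outside genes (36.9% to 45.7% of all reads) stayed out of library sizes. Symbols, exon lengths and transcripts came from GENCODE M21 on GRCm38, which named 52133 of 55414 identifiers (94.1%), and its gene positions served only to find neighbouring and overlapping genes. Genes passing filterByExpr (13115) were tested with edgeR 4.0.16 in R 4.3.3 (TMM factors, robust quasi-likelihood F test, Benjamini-Hochberg adjustment, called under 0.05), checked on simulated data. The standard error is the log2 fold change over the square root of F. Log2 CPM used a prior count of 2 (a pseudocount of 0.5 CPM in correlations among members), and sequences were aligned with edlib 1.3.9.post1.

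Shares and ratios were compared with exact permutation tests. Titles carry the replicate numbers 1 to 3 in each group but do not tie a number to an animal or a day, so p-values measure the spread between these samples. Deviations from the group means correlated at 0.63, 0.455 and 0.285 in same-numbered pairs and at -0.496 to 0.21 in others, so the replicate number was also fitted as a block. Calls with the block thus rest on a pairing read from these same data, which the labels do not give. They are given as an alternative to the main fit. Alternatives were DESeq2 1.42.0, limma-voom (limma 3.58.1), other scalings and filters, strand columns, a sex covariate read from Xist, and leaving out libraries. The members and lists were chosen with earlier results of these data known. Named are the members, Trip12, called list genes, the 3 largest changes per list at most, and the 3 genes most like Amy2b, Cpa1, Cpb1 and Rnase1; others, such as Amy2a1, Rnase2b and Rnpc3, were chosen after their values were seen. One gene of the lists is not reported here.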

Additional observations from a re-analysis of the deposited data

How the results depend on the processing

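All 22 alternative fits kept Amy2a2, Amy2b, Cpb1 and Rnase1 below 0. Library totals reversed Amy1 (0.079), Amy2a5 (0.107) and Cpa1 (0.16), and the sex covariate, which rests on 1 Xist-negative control, reversed Amy1 (0.053), left Cpa1 (-0.026) and Amy2a5 (-0.022) near 0 and gave Cpb1 -0.52 (adjusted p 0.369 in edgeR). Calls appeared under DESeq2's Wald test for Amy2b (-2.34), Cpb1 (-0.79) and Rnase1 (-0.54), and under the replicate block for Cpb1 (-0.76). With the replicate block and without pair 3, Amy2b (-2.71) and Cpb1 (-0.68) were called, and without pair 1 or 2 the block called 0 members. The block changed no other call among the members. Leaving out 1 library moved the log2 fold changes of Amy2b between -2.79 and -1.72, Cpb1 between -0.90 and -0.70, Rnase1 between -0.64 and -0.42, Cpa1 between -0.40 and -0.16, Amy2a5 between -0.48 and -0.14, Amy1 between -0.55 and -0.26, and Amy2a2 between -0.75 and -0.38. As a percentage of all reads, uncounted ones included, the members' summed share was higher in knockout by 0.173 points, against a difference of -0.79 as a percentage of gene counts. The 124 genes called (61 higher, 63 lower) became 1519 with library totals (1442 higher, 77 lower), 850 without a filter, 210 with at least 10 counts in every library, 593 under DESeq2, 785 with the replicate block, 396 and 832 with the block and without pair 1 or 3, and 21 with the sex covariate, and ran from 20 to 461 when 1 library was left out. The 5 ratios kept their direction in every alternative run. Counting error was small beside the spread between replicates for Cpa1, Cpb1 and Rnase1, whereas the Amy2a copies are limited by shared sequence.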
